A study of Mus musculus with 46 samples.

Results

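Non-infarct tissue of the left ventricle of MRL mice was compared between hearts taken at day 5 after the left coronary artery was ligated and hearts taken at day 0, which had no operation. Each group held 4 arrays, chosen by their titles, so that 8 of the 46 arrays of the series entered the comparison. All animals of both groups were male MRL/MpJ mice of 15 to 20 weeks. The day 5 hearts had been opened, ligated and closed under isoflurane with buprenorphine given for pain. Infarct and non-infarct regions were separated with a biopsy punch, and the day 0 tissue came from the region that matches non-infarct tissue. The day 0 hearts had no sham operation, so effects of the infarct and of the chest surgery cannot be told apart. Each array is labelled a biological replicate, without saying which arrays share a heart. Total RNA was hybridized to Affymetrix arrays, and levels are given as log2 intensity per probe set.

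MRL/MpJ is an inbred strain known for closing wounds of the ear. After an infarct the muscle outside it takes over the load of the lost muscle, and this remote tissue is known to remodel. Fibroblasts can divide and lay down matrix, macrophages enter, and heart muscle cells raise natriuretic peptides and lower genes of fat oxidation and of potassium currents. The other arrays of the series hold C57BL/6J (C57) mice, day 1 after ligation and the infarct region.

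The tissue carried a marker of heart muscle on every array. Myh6, the main myosin heavy chain of the adult mouse ventricle, had log2 intensities of 15.26, 15.15, 15.13 and 15.11 at day 5, against 15.28, 15.47, 15.38 and 15.43 at day 0. Myl7, an atrial myosin light chain, had log2 intensities of 8.28, 6.94, 7.66 and 2.53 at day 5, against 7.82, 8.37, 9.16 and 8.25 at day 0, so that day 5 replicate 4 stood far below the other arrays. Of 9 tested atrial genes (10 listed) Clu, clusterin, rose by 1.24 and Kcnj3, an inward rectifier, fell by 1.01, a call lost without day 5 replicate 2 (adjusted p = 0.073). In the atrial list 6 members lay below 0 and 3 above, with a median of -0.43. Its summed intensities, in which the brightest genes weigh most, were 21313 to 30780 at day 5, against 10845 to 14503 at day 0. The part of atrial tissue in the results was not tested. Array medians were 19.4 to 19.8 on the linear intensity scale at day 5, against 18.7 to 19.9 at day 0. The log2 difference of the 3′ and 5′ Gapdh control probe sets, a sign of RNA quality, was -0.27 to -0.09 at day 5, against -0.34 to -0.08 at day 0. Correlations between arrays over the tested probe sets were 0.983 to 0.991 within day 5, 0.984 to 0.992 within day 0 and 0.897 to 0.941 between the days.

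By day 5 the non-infarct tissue differed widely from day 0. Of 12344 probe sets tested with limma, 1981 (16.0%) were higher and 1009 (8.17%) lower at an adjusted p under 0.05. Counted by gene, 1203 of 7322 (16.4%) were higher and 614 (8.39%) lower, and 848 of these changed at least 2-fold. The rises were the larger changes: called genes rose by a median of 1.17 and fell by a median of 0.70 on the log2 scale. In the highest class, at 3 or more on the log2 scale, there were 90 higher genes and 0 lower ones. The day 5 and day 0 arrays did not overlap for 1182 of the 1203 higher genes and 578 of the 614 lower ones. Over all 7322 tested genes every day 5 array lay above every day 0 array for 1740 (23.8%) and below for 1670 (22.8%). With quantile normalization, which shifted the median change of all probe sets to -0.14 from -0.04, the calls were 1743 higher and 1853 lower, or 48.5% higher against 66.3%. The count of lower probe sets was 383 without day 5 replicate 2, 621, 643 and 622 when day 0 replicate 1, 2 or 4 was left out in turn. Fitting the 8 arrays alone called 24.7% of genes higher and 22.2% lower.

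The largest rises were in genes of injury response, matrix and macrophages. Sprr1a, a small proline-rich protein induced in stressed heart muscle cells, had log2 intensities of 11.37, 12.21, 11.16 and 11.50 at day 5, against 4.25, 4.94, 4.35 and 3.35 at day 0 (log2 change 7.34 ± 0.97 (SE), adjusted p = 3.1e-05). Timp1, a secreted inhibitor of matrix metalloproteinases, had 9.26, 9.83, 9.77 and 9.42 at day 5, against 2.24, 2.67, 2.13 and 2.71 at day 0 (log2 change 7.14 ± 0.62 (SE), adjusted p = 4.7e-07). Lgals3, the galectin of macrophages, had 9.73, 10.39, 9.30 and 9.22 at day 5, against 2.93, 2.58, 3.04 and 2.18 at day 0 (log2 change 6.98 ± 0.81 (SE), adjusted p = 8.1e-06). For these 3 genes every day 5 array lay far above every day 0 array, and the day 0 levels of Timp1 and Lgals3 were below every array's median, so the size of their rise is not exact. The same holds for Tnc, Lox, Gpnmb, Sfrp2, Ms4a7, Mfap4 and Serpinb1a. It holds in all for 34 of the 169 genes picked for description, those with a group mean below every array's median. The other large rises were Tnc by 6.61, Lox by 6.18, Gpnmb by 5.88, Sfrp2 by 5.75, Ms4a7 by 5.62, Mfap4 by 5.49, Fn1 by 5.33, Serpinb1a by 5.15 and Postn by 4.81. Among these, Gpnmb encodes a glycoprotein of lysosome-rich macrophages, Sfrp2 a secreted modulator of Wnt signalling, Ms4a7 a membrane protein of macrophages, and Serpinb1a an inhibitor of neutrophil proteases. The rank of Serpinb1a rests on 1 probe set, since another tested one rose by 1.03 ± 0.29 (adjusted p = 0.015 in limma).

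**Figure D1:**
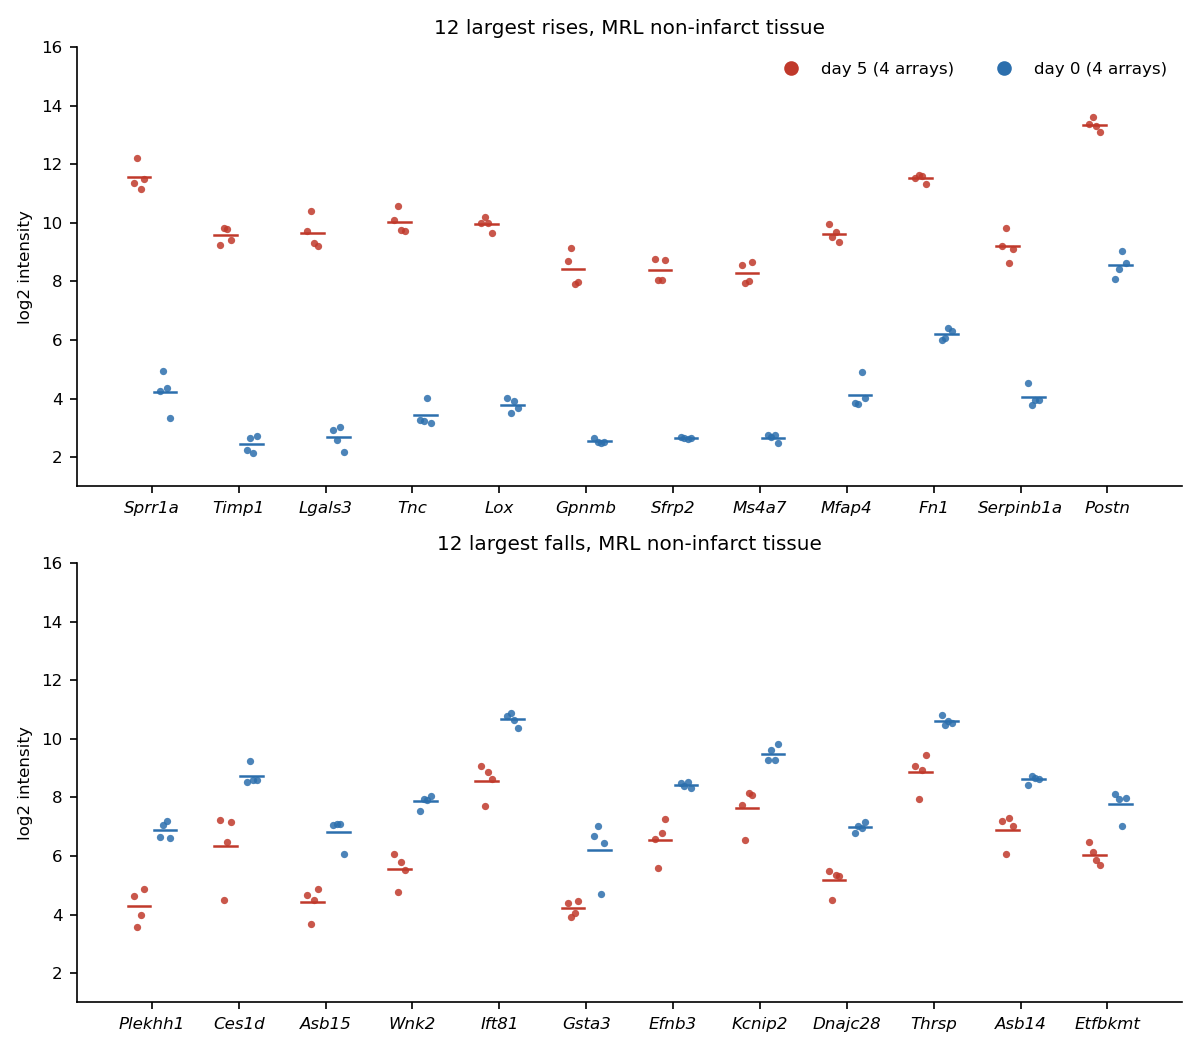
Log2 intensity of the 12 largest rises (top) and 12 largest falls (bottom) among called genes with groups that do not overlap, with 1 point per array, day 5 in red and day 0 in blue, and the group mean as a line. The rises span log2 changes of 4.81 to 7.34 and the falls -2.60 to -1.71, and day 5 replicate 2 is the lowest day 5 array for Ces1d at 4.50.

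Matrix genes rose as a body. Of 31 listed genes of collagens and interstitial matrix, 28 were tested and 27 rose, with a median log2 change of 3.11 against -0.03 over all 7322 genes. The median of the list lay 3.01 to 3.32 above the day 0 mean on the 4 day 5 arrays. Col1a1, a chain of the main fibrillar collagen, had log2 intensities of 13.87, 13.94, 13.89 and 13.74 at day 5, against 8.62, 8.75, 9.58 and 9.55 at day 0 (26.6-fold, log2 change 4.73 ± 0.49 (SE), adjusted p = 3.4e-06). Col3a1, the collagen laid down early in repair, had 13.29, 13.62, 13.53 and 13.59 at day 5, against 9.83, 9.90, 11.22 and 10.13 at day 0 (log2 change 3.24 ± 0.46 (SE), adjusted p = 6.3e-05). Both collagens reached similar levels on all 4 day 5 arrays, and day 0 replicate 3 was the highest day 0 array for each. Postn, periostin of activated fibroblasts, had 13.37, 13.62, 13.31 and 13.10 at day 5, against 8.09, 8.43, 9.02 and 8.63 at day 0 (log2 change 4.81 ± 0.36 (SE), adjusted p = 1.4e-07). Fn1, fibronectin, had 11.52, 11.65, 11.58 and 11.32 at day 5, against 6.01, 6.05, 6.40 and 6.30 at day 0 (log2 change 5.33 ± 0.48 (SE), adjusted p = 7.5e-07). Neither gene had overlapping groups, and Postn was 28-fold and Fn1 40.3-fold higher. Tnc, tenascin C of provisional matrix, had 10.09, 10.57, 9.75 and 9.72 at day 5, against 3.26, 3.23, 4.03 and 3.16 at day 0 (log2 change 6.61 ± 0.76 (SE), adjusted p = 7.7e-06), with the day 0 arrays below the array medians. Ccn2, a matricellular factor induced by TGF-beta, had 12.10, 12.72, 12.51 and 12.17 at day 5, against 9.59, 10.22, 9.95 and 9.83 at day 0 (log2 change 2.48 ± 0.48 (SE), adjusted p = 0.00098). Ccn1 alone of the tested members was not called, at 0.30 (adjusted p = 0.58).

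The genes that process collagen rose with it. All 15 tested genes of collagen hydroxylation, folding and crosslinking (of 17 listed) lay above 0, 14 were called and the median was 1.31. Lox, the lysyl oxidase that crosslinks collagen and elastin, had log2 intensities of 9.99, 10.20, 10.00 and 9.65 at day 5, against 4.03, 3.51, 3.92 and 3.67 at day 0 (log2 change 6.18 ± 0.58 (SE), adjusted p = 1.1e-06). Its relatives Loxl1 and Loxl3 rose by 3.04 and 2.25, Plod2, a lysyl hydroxylase, by 2.34, and Pcolce, an enhancer of procollagen cleavage, by 2.30. P4ha2, a prolyl hydroxylase subunit, was at 0.28 (adjusted p = 0.25).

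In the elastic fibre and microfibril list, 10 of 14 tested genes rose (17 listed, median 1.80). Mfap4, a microfibril-associated protein, had log2 intensities of 9.96, 9.50, 9.68 and 9.36 at day 5, against 3.85, 3.80, 4.90 and 4.00 at day 0 (log2 change 5.49 ± 0.46 (SE), adjusted p = 3.9e-07). Ltbp2, a microfibril protein of the latent TGF-beta binding family, rose by 4.49 and Eln, elastin itself, by 1.62. Values that were not called were Fbln1 0.58 (0.16), Ltbp1 0.35 (0.11), Ltbp4 0.04 (0.88) and Efemp1 -0.23 (0.39), with adjusted p in parentheses.

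Basement membrane genes rose, and proteoglycans rose in part. Of the small leucine-rich proteoglycans, 8 of 11 listed were tested and 4 rose (median 1.04), namely Fmod by 3.17, Aspn by 2.70, Bgn by 2.44 and Lum by 0.95, while Dcn, decorin, was at 0.41 (adjusted p = 0.11). In the fit of the 8 arrays alone all 8 were called higher. Other tested probe sets of Fmod gave 1.95, 2.40, 2.46 and 0.17, the last not called (adjusted p = 0.76). Of 15 basement membrane genes tested of 17, 12 rose (median 1.34), and Lama5, a laminin alpha chain, fell by 0.77 on the log2 scale. Col4a1, a chain of the basement membrane collagen, had log2 intensities of 12.90, 13.18, 13.05 and 13.11 at day 5, against 10.67, 10.70, 11.79 and 11.31 at day 0 (log2 change 1.94 ± 0.30 (SE), adjusted p = 0.00013). Its day 5 arrays stood above the highest day 0 array, replicate 3.

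Of matrix proteases and their inhibitors, 11 of 19 tested genes (26 listed) rose and 0 fell. Mmp14, a membrane-bound collagenase, had log2 intensities of 9.65, 9.97, 9.73 and 9.65 at day 5, against 3.96, 4.80, 6.34 and 5.49 at day 0 (log2 change 4.61 ± 0.67 (SE), adjusted p = 8e-05). Ctsk, a collagen-degrading cathepsin, had 7.77, 7.50, 7.05 and 6.92 at day 5, against 2.78, 2.64, 2.70 and 2.78 at day 0 (log2 change 4.59 ± 0.67 (SE), adjusted p = 8.7e-05), and Mmp12, the elastase of macrophages, had 7.07, 6.67, 5.29 and 5.74 at day 5, against 2.86, 2.74, 2.72 and 2.89 at day 0 (log2 change 3.39 ± 0.63 (SE), adjusted p = 0.00068). The day 0 arrays of Mmp14 spread widely, and those of Ctsk and Mmp12 sat at the low end of the scale. Among the other called members, Mmp23 rose by 2.75, Adam8 by 2.53, Adam12 by 2.26, Mmp2 by 1.61 and Timp2 by 0.74. Members that were not called included Mmp9 at -0.01 (adjusted p = 0.99), Mmp3 at -0.09 (0.76), Timp3 at -0.12 (0.8) and Timp4, the inhibitor most typical of heart, at -1.32 (0.1).

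Among growth factors and their regulators, 12 of 31 tested genes (39 listed) rose and 2 fell. All 3 TGF-beta ligands rose: Tgfb1 by 1.55, Tgfb2 by 2.46 and Tgfb3 by 2.56. Their receptors Tgfbr1 and Tgfbr2 rose by 1.18 and 1.25, and the induced matrix protein Tgfbi by 2.97. Igf1, insulin-like growth factor 1, had log2 intensities of 9.21, 9.12, 8.67 and 8.83 at day 5, against 6.30, 6.21, 6.10 and 6.14 at day 0 (log2 change 2.77 ± 0.37 (SE), adjusted p = 3.2e-05). Angpt1, a ligand that steadies vessels, fell by 1.25 and Igf2 by 0.75 on the log2 scale; the call of Igf2 was lost without day 0 replicate 1 or day 5 replicate 2 (adjusted p up to 0.068). Vegfa, the main growth factor of vessels, was at -0.32 (adjusted p = 0.48).

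Cell cycle genes rose. Of 38 listed genes 28 were tested, 20 rose and 0 fell, with a median of 1.23, and 19 to 20 were called when any 1 of the 8 arrays was left out. With 32 added to the intensities before log2, 8 members were called. Top2a, the topoisomerase that untangles replicated DNA, had log2 intensities of 5.80, 6.66, 6.62 and 5.88 at day 5, against 1.78, 1.73, 1.72 and 1.75 at day 0 (log2 change 4.49 ± 0.60 (SE), adjusted p = 3.2e-05). Mki67, the gene of the proliferation antigen Ki-67, had 6.86, 7.99, 7.30 and 7.69 at day 5, against 3.45, 3.34, 3.33 and 3.42 at day 0 (log2 change 4.08 ± 0.55 (SE), adjusted p = 4.2e-05). Cdk1, the kinase that drives entry into mitosis, had 5.68, 6.99, 6.96 and 6.87 at day 5, against 2.69, 2.65, 2.87 and 2.67 at day 0 (log2 change 3.90 ± 0.53 (SE), adjusted p = 4.2e-05). All 3 were tightly clustered at day 0, but below every array's median, so the size of their rise is not exact. Cdk1 was lower on day 5 replicate 1 than on the other day 5 arrays. Ube2c, a ubiquitin-conjugating enzyme of the anaphase-promoting complex, rose by 4.42 and Birc5, survivin, by 3.79. Ccnd1, the cyclin of entry into the cycle, rose by 1.18 and Pcna, the sliding clamp of DNA polymerase, by 1.02. Members that were not called were Cenpf 0.58 (0.34), Kif11 0.43 (0.15), Cenpa 0.29 (0.3), Ccne2 0.07 (0.77), Mcm2 0.00 (0.99), Aurkb -0.01 (0.97), Ccnd2 -0.10 (0.67) and Tyms -0.30 (0.14), with adjusted p in parentheses. Which cells divide cannot be read from bulk RNA, in which more cells of a type and more RNA per cell cannot be told apart.

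The promoters of 4 of the 5 largest cell cycle rises share letters known from genes of the late cell cycle, and are shown for that reason. CCAAT boxes, bound by the factor NF-Y, and the letters TTTGAA, the core of the element known as the cell cycle genes homology region, were searched on both strands in the 250 bases before each RefSeq gene start. Capitals mark both sets of letters, and a match on the other strand reads as ATTGG for the box and as TTCAAA for the element. In Ube2c a box on each strand overlaps. The sequences run 5′ to 3′ on the gene's strand, from RefSeq on GRCm38.p6: Top2a chr11:99024190-99024439 on the minus strand, Ube2c chr2:164769679-164769928 on the plus strand, Mki67 chr7:135716380-135716629 on the minus strand and Cdk1 chr10:69352913-69353162 on the minus strand.
Top2a: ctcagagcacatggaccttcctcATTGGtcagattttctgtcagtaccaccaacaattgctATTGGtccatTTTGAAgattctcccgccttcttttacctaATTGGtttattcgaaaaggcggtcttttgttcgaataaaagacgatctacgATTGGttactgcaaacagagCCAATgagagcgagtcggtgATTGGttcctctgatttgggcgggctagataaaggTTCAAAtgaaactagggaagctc
Ube2c: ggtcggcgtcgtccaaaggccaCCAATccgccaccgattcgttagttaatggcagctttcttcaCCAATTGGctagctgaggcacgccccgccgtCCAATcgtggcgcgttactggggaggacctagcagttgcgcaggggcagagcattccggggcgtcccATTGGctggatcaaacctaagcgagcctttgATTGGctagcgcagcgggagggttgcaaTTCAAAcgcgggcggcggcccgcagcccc
Mki67: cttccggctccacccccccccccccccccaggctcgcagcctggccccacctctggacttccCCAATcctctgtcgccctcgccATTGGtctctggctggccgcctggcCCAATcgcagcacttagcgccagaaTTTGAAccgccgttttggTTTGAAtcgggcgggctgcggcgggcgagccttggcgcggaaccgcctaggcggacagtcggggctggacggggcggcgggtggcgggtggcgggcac
Cdk1: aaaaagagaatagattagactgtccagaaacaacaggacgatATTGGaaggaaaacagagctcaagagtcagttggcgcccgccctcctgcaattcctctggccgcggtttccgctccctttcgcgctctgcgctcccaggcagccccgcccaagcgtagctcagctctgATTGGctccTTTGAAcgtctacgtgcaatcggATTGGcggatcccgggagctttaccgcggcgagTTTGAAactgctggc

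Of the 20 cell cycle genes that rose, 16 had a RefSeq promoter entry, and 15 of these held CCAAT and 7 held TTTGAA. Of the 8 tested members that were not called, 5 had an entry, of which 4 held CCAAT and 2 TTTGAA. Over 27025 genes with a promoter, 34.5% held CCAAT, 16.3% TTTGAA and 5.73% both. Birc5 held neither set of letters in this window. Members called higher and members not called both held the letters, and a match is a description, not a site.

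Markers of monocytes and macrophages rose. Of 37 listed markers 35 were tested and 29 rose, with a median of 2.10 and summed intensities of 35275 to 43499 at day 5, against 9222 to 10139 at day 0. Cd68, a lysosomal protein of macrophages, had log2 intensities of 8.99, 9.88, 9.04 and 9.19 at day 5, against 5.18, 4.64, 4.62 and 4.53 at day 0 (log2 change 4.54 ± 0.63 (SE), adjusted p = 5.1e-05). Ms4a7 had 8.56, 7.93, 8.00 and 8.65 at day 5, against 2.76, 2.68, 2.76 and 2.47 at day 0 (log2 change 5.62 ± 0.67 (SE), adjusted p = 1.1e-05), and Ctss, a cathepsin of antigen-presenting cells, had 11.39, 11.58, 10.83 and 11.01 at day 5, against 6.65, 6.81, 6.81 and 6.11 at day 0 (log2 change 4.61 ± 0.48 (SE), adjusted p = 3.4e-06). No day 5 array of these genes came near its day 0 arrays. Csf1r, the receptor for the macrophage growth factor, rose by 2.10 and Adgre1, the F4/80 antigen, by 1.71. Ccr2, the chemokine receptor of blood-derived monocytes, rose by 1.48, as did Folr2 and Mrc1, known from resident macrophages, by 2.37 and 1.68. Values that were not called were Arg1 1.59 (0.24), Clec4n 0.92 (0.059), Fcgr1 0.92 (0.14), Lyve1 0.73 (0.053), Cx3cr1 0.47 (0.15) and Trem2 -0.02 (0.96), with adjusted p in parentheses. The matrix and cell cycle genes above moved together with these markers, and the part of macrophages in those results was not tested.

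Markers of other leukocytes were few above the array medians. Only 2 of 12 neutrophil markers were tested, S100a8 at 0.05 (adjusted p = 0.96) and S100a9 at -0.20 (0.77), with summed intensities of 15 to 20.3 at day 5, against 15.7 to 18.5 at day 0. Of 14 T cell markers 3 were tested: Thy1, also a fibroblast gene, rose by 2.67, Cd4 fell by 0.44 and Cd247 was at -0.15 (adjusted p = 0.23). Of 10 B cell markers 2 were tested and 0 called, and of 7 mast cell markers 2 were tested and 1, Tpsb2, fell by 0.37. The calls of Cd4 and Tpsb2 were each lost without any 1 of several arrays, at adjusted p of 0.065 to 0.073 for Cd4 and 0.051 to 0.13 for Tpsb2.

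Complement genes rose, 8 of 11 tested (18 listed). C1qa, a chain of the C1q recognition molecule made by macrophages, had log2 intensities of 10.34, 10.02, 10.36 and 10.46 at day 5, against 8.11, 8.07, 7.99 and 7.93 at day 0 (log2 change 2.27 ± 0.28 (SE), adjusted p = 1.4e-05). C1qb and C1qc rose by 1.47 and 2.72, and C3ar1, the receptor for C3a, by 4.16. All these genes were separate between the days.

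Of cytokines, chemokines and adhesion molecules, 10 of 25 tested genes (36 listed) rose. Ccl6, a chemokine of macrophages, had log2 intensities of 8.46, 8.66, 8.48 and 7.67 at day 5, against 5.68, 5.15, 4.78 and 4.62 at day 0 (log2 change 3.26 ± 0.31 (SE), adjusted p = 1.2e-06). Ccl8, a monocyte attractant, rose by 3.27, Ccl9 by 2.38, Cxcl16 by 2.03 and Osmr, the oncostatin M receptor, by 1.99. Another tested probe set of Cxcl16 was not called, at 0.69 (adjusted p = 0.37). Early inflammatory cytokines were not called: Il6 0.11 (0.9), Il1b -0.17 (0.72), Tnf -0.18 (0.35), Ccl2 0.44 (0.64) and Cxcl1 0.06 (0.96), with adjusted p in parentheses.

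MHC class II genes and part of the interferon response rose. Of 11 tested genes of antigen presentation (16 listed) 5 rose, with H2-Aa, an MHC class II alpha chain, at 7.46, 7.04, 7.14 and 7.34 at day 5, against 4.90, 5.14, 3.40 and 2.55 at day 0 (log2 change 3.25 ± 0.64 (SE), adjusted p = 0.0011). Day 0 replicates 1 and 2 were higher for H2-Aa than replicates 3 and 4. Cd74, the invariant chain, rose by 1.87 and B2m, the light chain of MHC class I, by 1.05. Of 21 tested interferon response genes (30 listed) 9 rose and Ifitm1 fell by 0.96. Bst2, a membrane protein that holds back viruses, rose by 3.15 and Ifi27l2a by 2.27, whereas Irf1, a transcription factor induced by interferon gamma, was at -0.16 (adjusted p = 0.46).

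Fibroblast and contractile stromal markers rose in part. Of 17 fibroblast and epicardium markers 12 were tested, 8 rose and Gsn, gelsolin, fell by 1.02 (a call lost without day 0 replicate 2, day 5 replicate 2 or day 5 replicate 4, adjusted p up to 0.082), with summed intensities of 22853 to 27803 at day 5, against 10828 to 12394 at day 0. Fap, a surface protease of activated fibroblasts, had log2 intensities of 7.03, 7.21, 6.63 and 6.86 at day 5, against 3.64, 3.73, 3.31 and 3.16 at day 0 (log2 change 3.47 ± 0.46 (SE), adjusted p = 3.6e-05). Pdgfra and Tcf21, markers of fibroblasts at rest, rose by 0.79 and 1.10, while Ddr2 was at 0.13 (adjusted p = 0.5) and Wt1, of the epicardium, at 0.05 (0.82). Of 13 tested markers of smooth muscle and myofibroblasts (14 listed) 6 rose. Acta2, smooth muscle actin, had 11.25, 11.31, 11.05 and 10.89 at day 5, against 9.58, 9.57, 10.05 and 9.36 at day 0 (log2 change 1.49 ± 0.20 (SE), adjusted p = 4.3e-05), and Myh11, the smooth muscle myosin that myofibroblasts lack, was at -0.59 (adjusted p = 0.077). Both Fap and Acta2 were separate between the days on every array.

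Endothelial markers held few stable calls. Of 21 tested, 6 rose and 1, Robo4, fell by 0.48, where 16.4% of all genes rose and 8.39% fell. Their median was 0.29 against -0.03 over all genes, and members ran from -1.08 to 1.48. The highest was Aplnr, called at 1.48, a call lost in 7 of the 8 fits without 1 array. Another probe set of Aplnr rose by 1.15 (adjusted p = 0.013). Cdh5, the cadherin of endothelial junctions, rose by 0.68, but another probe set was at 0.04 (adjusted p = 0.96). Vwf was at 0.11 (adjusted p = 0.72). Between 2 and 3 markers were called higher when 1 of the 8 arrays was left out, Pecam1 lost its call in all of these fits and Robo4 in 7 of them (adjusted p up to 0.13).

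Markers of further cell types gave single calls. Of 4 tested platelet and red cell markers (10 listed) Pf4, a chemokine of platelets also found in macrophages, rose by 0.97, a call lost without day 0 replicate 2 or day 5 replicate 2 (adjusted p up to 0.093). Of 5 nerve and Schwann cell markers (12 listed) Stmn2 rose by 0.77, a call lost in 6 of the 8 fits without 1 array. Of 2 tested skeletal muscle markers (12 listed) Ckm, the muscle creatine kinase that heart also uses, fell by 0.58, lost likewise in 6, and of 4 adipose markers (12 listed) Thrsp, of fat synthesis, fell by 1.75.

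Part of the stress genes of heart muscle rose. Of 17 tested fetal and stress genes (20 listed) 7 rose. Nppa, the atrial natriuretic peptide, had log2 intensities of 14.61, 14.73, 14.53 and 14.34 at day 5, against 12.08, 12.42, 12.32 and 12.20 at day 0 (4.91-fold, log2 change 2.30 ± 0.49 (SE), adjusted p = 0.0023). Nppb, the brain natriuretic peptide, had 11.69, 12.04, 12.29 and 11.96 at day 5, against 10.34, 10.17, 10.86 and 9.47 at day 0 (log2 change 1.78 ± 0.40 (SE), adjusted p = 0.0032). The days did not overlap for either peptide. Rcan1, a target and inhibitor of calcineurin, rose by 1.64, Actn1, a non-muscle actinin, by 2.19 and Fhl1, a LIM protein of stretched muscle, by 1.29. Ankrd1, a titin-binding stress protein, was at 0.34 (adjusted p = 0.3), and Myh7, the fetal myosin heavy chain, at -0.56 (0.61). Myh7 spread widely, with 8.35, 7.21, 8.77 and 8.53 at day 5, against 8.47, 9.69, 8.04 and 8.90 at day 0. Acta1, skeletal actin, rose by 0.95 (adjusted p = 0.044), a call lost in each of the 8 fits that left out 1 array, at an adjusted p of 0.066 to 0.1.

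Of 21 tested sarcomere and Z-disc genes (22 listed), 19 lay below 0, but with a median of only -0.21 and with 2 called lower and 1 higher. The called falls were Ldb3, a Z-disc protein (log2 change -0.81 ± 0.24 (SE), adjusted p = 0.019), and Myom2, of the M-band, and the rise was Des, desmin. Other tested probe sets of Ldb3 were not called, at -0.21 (adjusted p = 0.6) and -0.19 (0.53). Each of the 3 calls was lost without day 5 replicate 2, among other arrays for Ldb3 and Myom2. Myh6 was at -0.23 ± 0.17 (adjusted p = 0.31) by its brighter probe set, whereas a dimmer one gave -1.10 ± 0.30 (adjusted p = 0.013). The 8 arrays alone called 9 members lower, and the fit without C57 non-infarct day 5 replicate 3 called 8.

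Genes of calcium handling and of potassium currents lay mostly below day 0. Of 13 tested calcium handling genes (18 listed) 3 fell: Trdn, triadin, by 0.78, Cacna1c, the pore of the L-type calcium channel, by 0.86, and Jph2, which tethers the sarcoplasmic reticulum, by 0.94 on the log2 scale. Without day 5 replicate 2 none of these 3 was called. Atp2a2, the calcium pump of the sarcoplasmic reticulum, was at -0.22 (adjusted p = 0.3), Ryr2, the release channel, at -0.45 (0.23) and Pln, the pump's inhibitor, at -0.52 (0.12). Potassium channel genes had the lowest median of all lists, -0.95, with 7 of 13 tested genes (20 listed) called lower and 0 higher. Kcnip2, an auxiliary subunit of the transient outward current, had log2 intensities of 7.73, 6.56, 8.15 and 8.09 at day 5, against 9.27, 9.61, 9.27 and 9.83 at day 0 (3.64-fold lower, log2 change -1.87 ± 0.52 (SE), adjusted p = 0.014). Its lowest value was on day 5 replicate 2, without which the adjusted p was 0.068. Kcnj11, the pore of the ATP-sensitive channel, had 6.20, 5.69, 6.20 and 6.27 at day 5, against 7.17, 7.02, 7.69 and 7.58 at day 0 (log2 change -1.27 ± 0.33 (SE), adjusted p = 0.0093). Kcnj5, an inward rectifier, had 3.05, 3.04, 3.65 and 3.64 at day 5, against 4.04, 5.00, 4.24 and 4.54 at day 0 (log2 change -1.11 ± 0.24 (SE), adjusted p = 0.0027), and Kcnn2, a calcium-activated channel, fell by 1.14. These 3 kept non-overlapping groups, and 4 to 7 members of the list were called lower when 1 of the 8 arrays was left out. The 8 arrays alone called 8 calcium handling and 11 potassium channel genes lower. Without C57 non-infarct day 5 replicate 3 the counts were 8 and 9.

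Mitochondrial genes lay below day 0 by small amounts, and few of them passed the test. All 40 tested respiratory chain and ATP synthase genes (42 listed) lay below 0, with a median of -0.45, and 5 were called. Summed intensities were 198531 to 248629 at day 5, against 307299 to 317172 at day 0, without overlap. Ndufs1, a core subunit of complex I, had log2 intensities of 11.94, 11.41, 12.02 and 12.07 at day 5, against 12.87, 12.84, 12.65 and 12.56 at day 0 (log2 change -0.87 ± 0.31 (SE), adjusted p = 0.047). Day 5 replicate 2 was the lowest, and the 4 day 5 arrays stayed below the 4 day 0 arrays. The other called members were Ndufb5 and Ndufs3, of complex I, at -0.54 and -0.47, and Uqcrc1 and Uqcrq, of complex III, at -0.58 and -0.60. When any 1 of the 8 arrays was left out, 0 to 1 member was called. The 8 arrays alone called 37 of the 40, and the fit without C57 non-infarct day 5 replicate 3 called 35.

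Fat oxidation genes gave few stable calls. Of 31 tested genes (34 listed) 28 lay below 0, 8 fell and 2 rose, with a median of -0.70. Cpt2, a carnitine palmitoyltransferase of mitochondria, had log2 intensities of 10.38, 9.63, 10.32 and 10.44 at day 5, against 11.15, 11.06, 10.92 and 11.38 at day 0 (log2 change -0.93 ± 0.31 (SE), adjusted p = 0.031). Ppara, the nuclear receptor that drives fat oxidation genes, fell by 1.24, and Mlycd, which breaks down the inhibitor malonyl-CoA, by 1.10. The days did not overlap for Cpt2, but its call and those of Ppara and Mlycd were among the 8 that were all lost without day 5 replicate 2. Fits with 1 of the 8 arrays left out called 0 to 5 members lower. The 8 arrays alone called 24, and the fit without C57 non-infarct day 5 replicate 3 called 21. Angptl4, a secreted inhibitor of lipoprotein lipase, rose by 2.62 and Cpt1a, the carnitine palmitoyltransferase more typical of liver, by 0.75, the call of Cpt1a being lost in 5 of the 8 fits without 1 array (adjusted p up to 0.11).

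Of 30 tested genes of the citrate cycle and branched-chain amino acid breakdown (31 listed) 13 fell, and all 30 lay below 0 (median -0.63). Mccc2, a subunit of the carboxylase of leucine breakdown, had log2 intensities of 5.09, 4.54, 5.24 and 5.41 at day 5, against 6.18, 6.28, 6.77 and 7.06 at day 0 (log2 change -1.50 ± 0.37 (SE), adjusted p = 0.0059). Ivd, the dehydrogenase before it in the leucine pathway, had 9.51, 8.55, 9.63 and 9.55 at day 5, against 10.64, 10.63, 10.75 and 10.77 at day 0 (log2 change -1.39 ± 0.36 (SE), adjusted p = 0.0084), and Auh, the hydratase after it, had 9.09, 8.42, 9.20 and 9.26 at day 5, against 10.08, 10.06, 10.17 and 10.39 at day 0 (log2 change -1.18 ± 0.29 (SE), adjusted p = 0.0067). The days did not overlap for these 3 leucine genes, and day 5 replicate 2 was the lowest array for each. The calls were 6 without day 5 replicate 2 and up to 11 without another of the 8 arrays. They were 26 with the 8 arrays alone and 23 without C57 non-infarct day 5 replicate 3. In the cycle itself Idh2 fell by 0.96, Ogdh by 0.67 and Mdh2 by 0.42, calls that were lost in 6, 7 and 6 of the 8 fits without 1 array, whereas Cs, citrate synthase, was at -0.27 (adjusted p = 0.21).

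Glycolysis and hypoxia genes were split, with 7 of 25 tested (28 listed) higher and 2 lower. Hmox1, heme oxygenase, had log2 intensities of 7.86, 8.78, 7.89 and 7.24 at day 5, against 3.93, 4.45, 4.41 and 4.71 at day 0 (log2 change 3.57 ± 0.65 (SE), adjusted p = 0.00057). Pfkp, the platelet-type phosphofructokinase, rose by 1.75 and Hif1a, a transcription factor of the response to low oxygen, by 1.42. Pfkm, the muscle type, was at -0.74 (adjusted p = 0.1) and Slc2a4, the insulin-responsive glucose transporter, at -0.88 (0.092). Hmox1 stood well above day 0 on all 4 day 5 arrays. Without day 5 replicate 2 the list held 3 higher calls and 0 lower ones. It held 7 higher and 9 lower ones without C57 non-infarct day 5 replicate 3.

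The largest falls belonged to genes of varied roles. Plekhh1, a pleckstrin homology protein, had log2 intensities of 4.64, 3.58, 4.00 and 4.88 at day 5, against 6.65, 7.05, 7.18 and 6.61 at day 0 (log2 change -2.60 ± 0.30 (SE), adjusted p = 7.7e-06). Asb15, of a muscle family that feeds proteins to ubiquitin ligases, had 4.67, 3.69, 4.51 and 4.86 at day 5, against 7.05, 7.11, 7.08 and 6.08 at day 0 (log2 change -2.40 ± 0.54 (SE), adjusted p = 0.0033), and Wnk2, a kinase, had 6.08, 4.78, 5.80 and 5.53 at day 5, against 7.55, 7.95, 7.90 and 8.04 at day 0 (log2 change -2.31 ± 0.47 (SE), adjusted p = 0.0015). These genes were lower on every day 5 array than on any day 0 array. Ces1d, a lipid-handling carboxylesterase, had 7.21, 4.50, 6.48 and 7.16 at day 5, against 8.53, 9.25, 8.58 and 8.59 at day 0 (log2 change -2.40 ± 0.59 (SE), adjusted p = 0.0061), and without day 5 replicate 2 its change was -1.79 (adjusted p = 0.033). Gsta3, a glutathione S-transferase, was low on day 0 replicate 3 too, with 4.39, 3.93, 4.06 and 4.45 at day 5, against 6.69, 7.03, 4.68 and 6.45 at day 0 (log2 change -2.01 ± 0.45 (SE), adjusted p = 0.0034). The others were Ift81, of cilium transport, at -2.10, Efnb3, an ephrin, at -1.87, Dnajc28, a J-domain protein, at -1.82, Thrsp, of fat synthesis, at -1.75, Asb14 at -1.73 and Etfbkmt, a methyltransferase, at -1.71. Efnb3 lost its call in 6 of the 8 fits without 1 array (adjusted p up to 0.12), Asb14 likewise in 6 (up to 0.11), and Dnajc28 and Thrsp without day 5 replicate 2 (0.061 and 0.083). Of 10 tested genes of the Asb family and other muscle ubiquitin ligases (18 listed) 4 fell and all lay below 0. The count was 1 without day 5 replicate 2 and 9 without C57 non-infarct day 5 replicate 3.

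**Figure D2:**
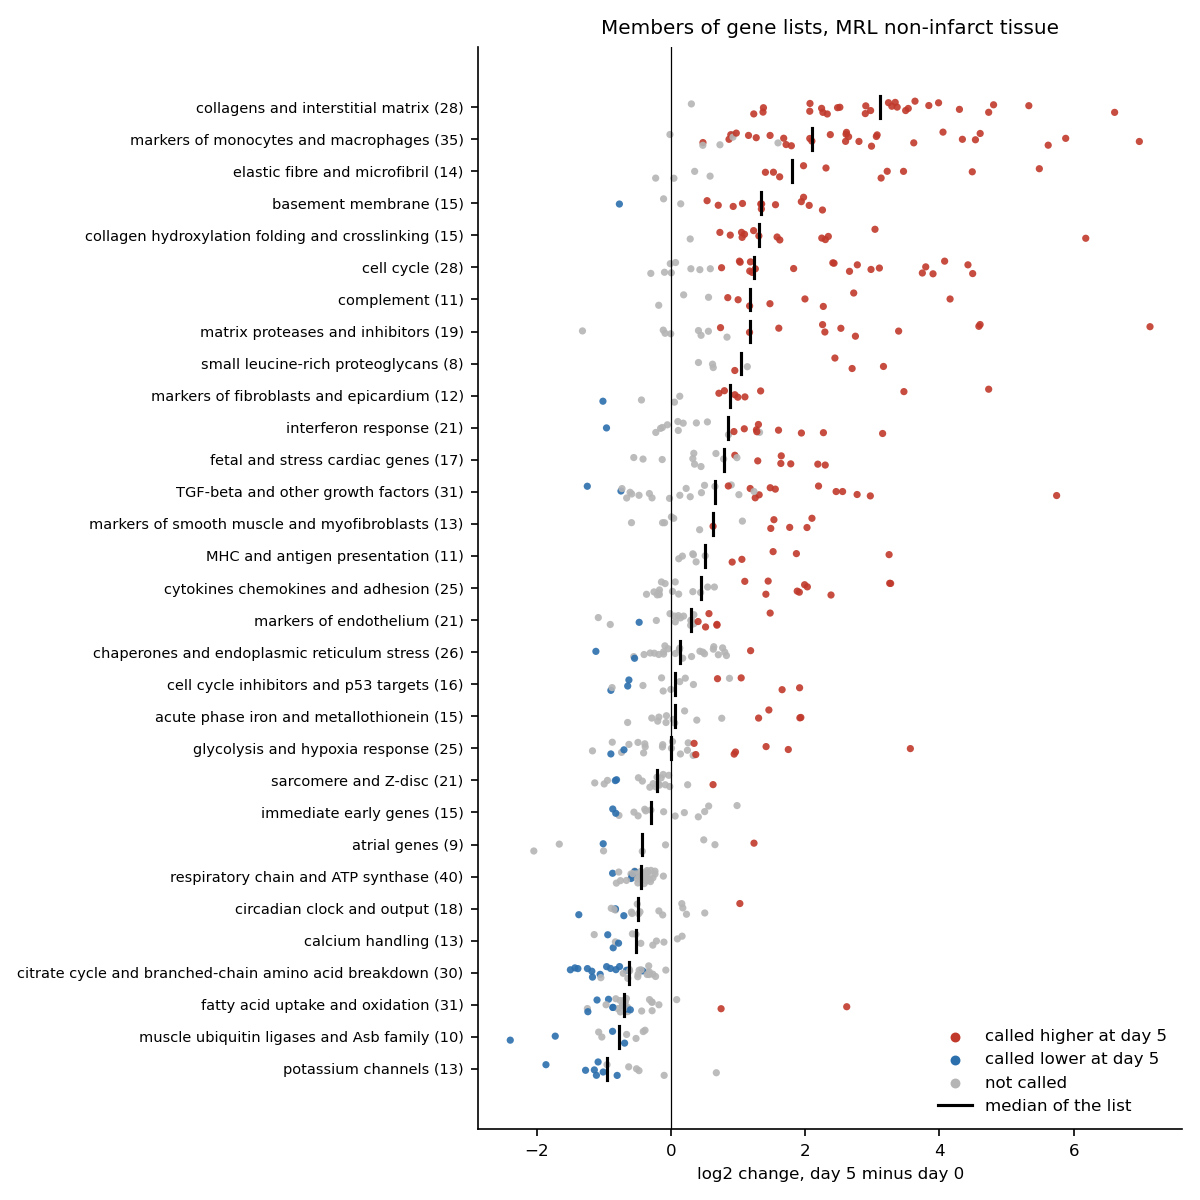
Log2 change at day 5 against day 0 of each tested member (point) of the gene lists with 8 or more tested members, ordered by the median of the list (black bar), with the number tested in parentheses. Called rises are red, called falls blue and other members grey. Medians run from 3.11 in collagens and interstitial matrix to -0.95 in potassium channels, and most members of the muscle and metabolic lists lie below 0 without a call.

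Set against day 1 after ligation, 753 of 7322 genes (10.3%) were higher at day 5 and 188 (2.57%) lower. These counts rested on single arrays in part. Of 1170 higher and 309 lower probe sets, 679 higher and 88 lower were called when day 5 replicate 2 was left out, and 740 higher and 125 lower when day 1 replicate 4 was left out. The lower calls were 143, 150 and 179 when day 1 replicate 3, day 5 replicate 1 or day 5 replicate 4 was left out in turn. The matrix, macrophage and cell cycle genes were higher at day 5 than at day 1: 24 of 28 collagens and matrix genes, 25 of 35 macrophage markers and 20 of 28 cell cycle genes were called higher, and no tested member of these lists was called lower. Col1a1 had log2 intensities of 8.62, 8.75, 9.58 and 9.55 at day 0, 10.27, 9.93, 8.51 and 9.05 at day 1 and 13.87, 13.94, 13.89 and 13.74 at day 5 (day 5 minus day 1 4.42 ± 0.49, adjusted p = 9.1e-06). Top2a had 1.78, 1.73, 1.72 and 1.75 at day 0, 1.76, 1.63, 1.73 and 1.78 at day 1 and 5.80, 6.66, 6.62 and 5.88 at day 5 (day 5 minus day 1 4.51 ± 0.60, adjusted p = 5e-05). The day 1 arrays of Top2a lay at the day 0 level, with both days below every array's median. For Col1a1 day 1 replicates 1 and 2 were a little above the day 0 level and replicates 3 and 4 within or below it. Sfrp2 and Mfap4 were also near their day 0 level at day 1, and were higher at day 5 than at day 1 by 5.73 and 5.69 on the log2 scale. Lgals3 and Tnc were higher at day 5 than at day 1 by 4.03 (adjusted p = 0.0024) and 3.01 (0.013).

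A second set of genes had no called difference between day 1 and day 5. Timp1 had log2 intensities of 2.24, 2.67, 2.13 and 2.71 at day 0, 8.33, 9.52, 8.40 and 8.82 at day 1 and 9.26, 9.83, 9.77 and 9.42 at day 5 (day 5 minus day 1 0.81 ± 0.62, adjusted p = 0.41). Ccn2 was 0.19 ± 0.48 from day 1 (adjusted p = 0.82), Nppa 0.78 ± 0.49 (0.31), Nppb -0.65 ± 0.40 (0.3) and Ccl6 -0.24 ± 0.31 (0.64). Hmox1 spread over more than 3 log2 units on the day 1 arrays, with 6.15, 6.47, 9.28 and 7.74.

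Another set was lower at day 5 than at day 1. Lcn2, an iron-binding protein of neutrophils and injured tissue, had log2 intensities of 2.55, 2.76, 2.95 and 2.77 at day 0, 8.43, 8.97, 9.10 and 9.01 at day 1 and 4.62, 4.79, 5.06 and 4.24 at day 5 (day 5 minus day 1 -4.20 ± 0.37, adjusted p = 3.9e-07). Serpina3n, an acute phase protease inhibitor, had 5.54, 5.20, 5.09 and 6.10 at day 0, 9.16, 8.98, 10.48 and 9.72 at day 1 and 7.60, 7.89, 7.25 and 6.93 at day 5 (day 5 minus day 1 -2.17 ± 0.38, adjusted p = 0.00072). Both were still above day 0 at day 5 (log2 change 1.92 ± 0.37 (SE), adjusted p = 0.0009, and log2 change 1.93 ± 0.38 (SE), adjusted p = 0.0011). S100a8, of the calprotectin pair of neutrophils, had 3.16, 3.31, 2.81 and 3.23 at day 0, 4.46, 4.64, 7.61 and 7.39 at day 1 and 2.88, 3.35, 3.61 and 2.88 at day 5 (day 5 minus day 1 -2.85 ± 0.61, adjusted p = 0.0042), and its partner S100a9 was -3.70 from day 1 (adjusted p = 2.2e-05). At day 5 these neutrophil genes lay within or near their day 0 range. Saa3, serum amyloid A, went the other way, at 5.39, 5.12, 5.11 and 5.20 at day 0, 5.46, 5.40, 5.37 and 5.45 at day 1 and 6.80, 7.71, 6.03 and 6.11 at day 5 (day 5 minus day 1 1.24 ± 0.37, adjusted p = 0.032).

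**Figure D3:**
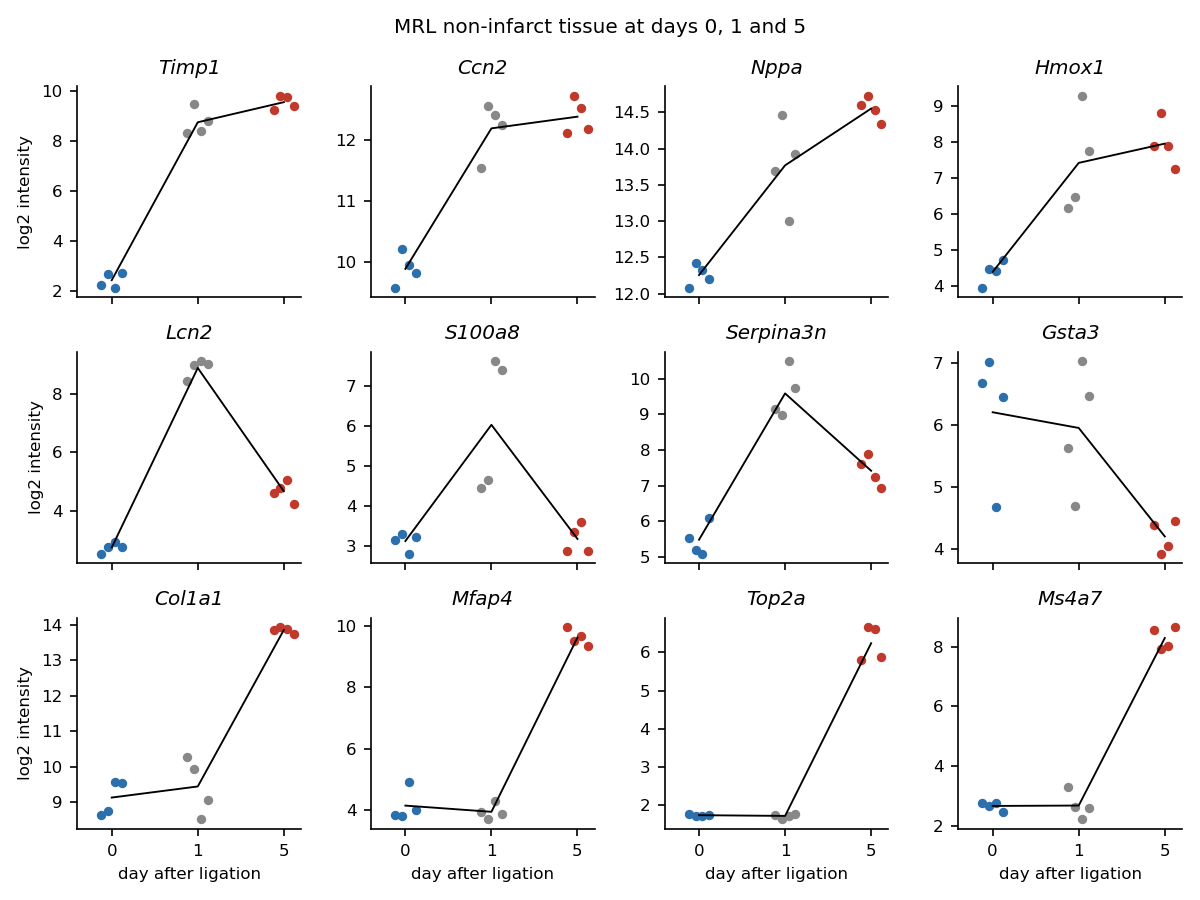
Log2 intensity of 12 genes in MRL non-infarct tissue at days 0 (blue), 1 (grey) and 5 (red) after ligation, with 1 point per array and a line through the 3 means; each panel has its own axis. Timp1, Ccn2, Nppa and Hmox1 had no called difference between days 1 and 5, Lcn2, S100a8, Serpina3n and Gsta3 were lower at day 5 than at day 1, and the bottom row was higher at day 5 than at day 1.

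Some of the genes that fell against day 0 were also below day 1. Gsta3 was -1.75 from day 1 (adjusted p = 0.015), Ces1d -1.93 (0.036) and Fmo2, a flavin monooxygenase, -1.51 (0.0086). Plin4, a coat protein of lipid droplets, was -1.27 (0.031). Of the respiratory chain list 0 of 40 genes were called against day 1 with limma (2 had an unadjusted p under 0.05), and the median difference was -0.30.

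The infarct region of the same strain and day was set beside the non-infarct tissue by testing the difference of their changes over all 46 arrays. With all arrays, 3 of 13138 probe sets (0.0228%) were called, and 1908 had an unadjusted p under 0.05. A pair of day 5 arrays stood apart from their groups on the first principal component of all arrays: MRL infarct day 5 replicate 3, at 11 with the other three at 107.9, 115.7 and 109, and C57 non-infarct day 5 replicate 3, at 99.1 with the other three at -30.2, 21.8 and 35.3. Both kept their labels. The pair was picked from these same values, and leaving it out widened the infarct change, with respiratory chain medians of -1.89 against -1.46. Counts and adjusted p-values without the pair are therefore a description and not a separate test. Without the pair 2514 probe sets (19.1%) were called, and without the MRL infarct array alone 1980. By gene the count without the pair was 961 (12.4%) with the higher change and 691 (8.90%) with the lower change in non-infarct tissue, of 7760 tested.

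Without the pair of arrays, heart muscle and mitochondrial genes had the less negative change in non-infarct tissue. The difference was called for 40 of 40 respiratory chain genes, with median changes of -0.45 in non-infarct tissue and -1.89 in the infarct region. It was called for 17 of 21 sarcomere genes, with medians of -0.21 in non-infarct tissue and -1.65 in the infarct region, and for 12 of 13 calcium handling genes and 24 of 31 fat oxidation genes. Myh6 changed by -0.23 in non-infarct tissue and -1.65 in the infarct region (difference 1.42 ± 0.31, adjusted p = 0.0012). Kcnip2 changed by -1.87 in non-infarct tissue and -5.34 in the infarct region (difference 3.47 ± 1.06, adjusted p = 0.017). With all 46 arrays, limma called 0 members of these lists, although 37 of the 40 respiratory chain genes had an unadjusted p under 0.05, and the respiratory chain medians were -0.45 in non-infarct tissue and -1.46 in the infarct region.

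Likewise without the pair, 24 of 35 macrophage markers had the smaller and 1 the larger change in non-infarct tissue. Their medians were 2.10 in non-infarct tissue and 4.14 in the infarct region. Lgals3 changed by 6.98 in non-infarct tissue and 10.10 in the infarct region (difference -3.12 ± 0.90, adjusted p = 0.012). Ctsk changed by 4.59 in non-infarct tissue and 6.97 in the infarct region (difference -2.38 ± 0.45, adjusted p = 0.00029). Of 28 matrix genes 6 were called, all with the smaller rise in non-infarct tissue. Col1a1 changed by 4.73 in non-infarct tissue and 5.88 in the infarct region (difference -1.15 ± 0.60, adjusted p = 0.19) and Postn by 4.81 in non-infarct tissue and 5.40 in the infarct region (difference -0.59 ± 0.47, adjusted p = 0.44). Nppa did not differ beyond its error, at 2.30 in non-infarct tissue and 2.40 in the infarct region (difference -0.10 ± 0.67, adjusted p = 0.96), nor did Top2a, at 4.49 in non-infarct tissue and 5.32 in the infarct region (difference -0.83 ± 0.84, adjusted p = 0.57). With all 46 arrays, limma called 0 macrophage markers and 0 matrix genes, with 12 and 4 at an unadjusted p under 0.05.

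**Figure D4:**
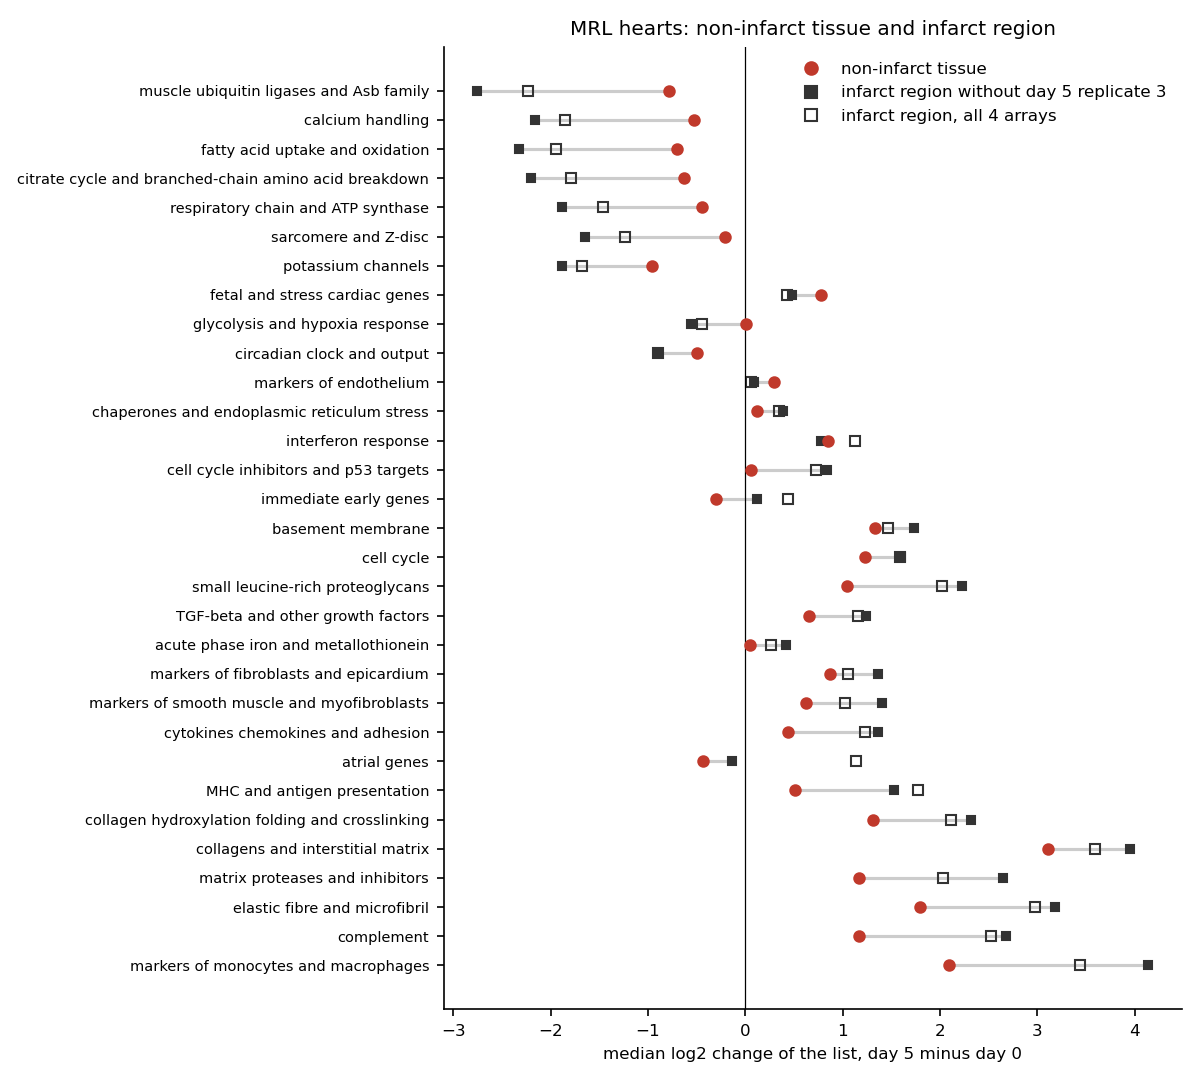
Median log2 change, day 5 minus day 0, of each gene list with 8 or more tested members in MRL hearts: red circles for non-infarct tissue, filled squares for the infarct region without day 5 replicate 3 and open squares for the infarct region with all 4 arrays, ordered by the median difference of the regions without the pair of arrays. The muscle and metabolic lists at the top have the less negative median in non-infarct tissue, and macrophage markers at the bottom have medians of 2.10 in non-infarct tissue and 4.14 in the infarct region without replicate 3.

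Non-infarct tissue of C57 mice, with 4 arrays at day 5 and 3 at day 0, gave the test of whether the day 5 change differs between the strains. Of 12344 probe sets 1 (0.00810%) was called, and 227 had an unadjusted p under 0.05. Vsig4, a complement receptor of tissue macrophages, had log2 intensities of 5.39, 5.15, 4.08 and 4.99 at day 5, against 2.48, 2.42, 2.38 and 2.46 at day 0 in MRL. In C57 it had 2.49, 3.07, 2.48 and 2.52 at day 5, against 2.50, 2.39 and 2.48 at day 0. The rise in MRL stood on all 4 day 5 arrays, while in C57 only day 5 replicate 2 stood clearly above the day 0 arrays, and the changes differed by 2.28 ± 0.30 (adjusted p = 0.0031). Of the 23 arrays, Vsig4 lay above the array's median on 3, all at day 5 in MRL, so that it passed the filter through that group alone. It was not called with 32 added before log2 (0.72, adjusted p = 0.11) or with all 46 arrays in the fit (adjusted p = 0.24), and it did not pass the stricter filter. With 32 added, the call was Plekhh1, with the lower change in MRL (-1.45, adjusted p = 0.0067, against -2.37 and 0.17 without the addition). In the MRL infarct region at day 5 Vsig4 had 3.15, 5.78, 2.86 and 4.07, and in MRL non-infarct tissue at day 1 3.02, 2.40, 2.47 and 2.48. C57 day 5 replicate 3 was picked from these same values, in which it stood apart on the first principal component. Counts without it are therefore a description and not a separate test. Without C57 day 5 replicate 3, 10 probe sets were called, all with the higher change in MRL. They were Mmp12 (3.08), Hal (2.85), Ctsk (2.70), Ifi202b (2.47), Vsig4 (2.23), Serpinb9b (2.15), Pttg1 (1.69), Ncf4 (1.46), Col11a1 (1.26) and 1 without a gene name. Without C57 day 5 replicate 1 the count was 4, with Vsig4, Pttg1 and Armh4 higher and Fcgr1 lower in MRL, and without both it was 14. For the collagens and matrix list the medians were 3.11 in MRL and 3.03 in C57, for macrophage markers 2.10 in MRL and 2.21 in C57, and for respiratory chain genes -0.45 in MRL and -0.63 in C57. With all arrays, limma called 0 members of these 3 lists in the strain test, with 1 macrophage marker and no other member at an unadjusted p under 0.05.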

How the data were processed

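RNA of 46 left ventricle samples was hybridized to Affymetrix arrays, and the authors deposited 1 table of linear intensities, made with GCRMA per the submitters' processing notes (version not given in the sources used here). No pseudocount was needed before log2, since the smallest value was 1.03. Of 22690 probe sets 64 controls were left out, and 20380 of the rest have 1 gene symbol, 691 several and 1555 none. Levels are log2 intensities, and a GCRMA level near the array median says little about a probe set's true size.

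A linear model of the 6 group means over the 23 non-infarct arrays was fitted by lmFit and eBayes (limma 3.58.1, R 4.3.3), with two-sided tests and Benjamini-Hochberg adjustment over 12344 probe sets, those above their array's median on at least 3 of the 23 arrays. The 46 arrays were fitted for the difference between regions, over 13138 probe sets. A call is an adjusted p under 0.05. The p-values rest on the spread within groups over all 23 arrays, or all 46 for the regions, and not over the 8 compared arrays alone. These arrays hold both strains and all days, with C57 non-infarct day 5 replicate 3 among them. The labels call the samples biological replicates. A gene stands for its tested probe set, with that symbol alone, of highest mean over the 46 arrays. The comparison, the 39 lists and the tests were chosen with earlier results of these data known. Genes are named as the 12 largest changes each way with groups that do not overlap, up to 5 called per list, 20 chosen index genes and the 8 largest per difference test. Further list members were named after their values were seen, to account for small counts and for members without a call. The fits were tested on simulated data. Replicate numbers were not used as pairs. Other scalings, filters, offsets, sets of arrays, an intensity trend, a replicate block and leaving out each array were tried. Depth has no count here, and the 4 arrays per group limit the precision.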

Additional observations from a re-analysis of the deposited data

Results flagged for a closer look

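Among 338 groups of 4 arrays, 169 genes at each day, 25 held an array far from the other three by Dixon's criterion, where chance gives about 1 in 20. Day 5 replicate 2 accounts for 8 of them. It was low for Uqcrc1 (log2 intensity 11.32), Ldb3 (11.23), Cpt2 (9.63), Kcnj11 (5.69), Hlf (4.51) and Ivd (8.55), and high for Birc5 (7.71) and Pfkp (9.43). Day 5 replicate 1 was low for Cdk1 (5.68) and Cdh5 (9.03) and high for Lum (11.43). Day 5 replicate 3 was high for Tagln, an actin-binding protein of smooth muscle (10.12). Day 5 replicate 4 was low for Ccl8 (6.54) and Phlda3 (7.58) and high for C1qb (9.25). At day 0, replicate 1 was low for Ddit3 (7.04) and Gadd45a (5.59), and replicate 2 high for Ifit3 (5.09) and Ces1d (9.25) and low for Kcnn2 (5.11). Day 0 replicate 3 was high for Tnc (4.03), and replicate 4 was low for Uchl1 (2.27) and Asb15 (6.08) and high for Uqcrq (12.18) and Bckdha (10.13).

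The change of Vsig4 was called larger in MRL than in C57 non-infarct tissue, by 2.28 (adjusted p = 0.0031 in limma). It passed the filter only through MRL day 5 arrays, where it is high. The call was lost with 32 added before log2 (adjusted p = 0.11) and with all 46 arrays in the fit (0.24). With all 46 arrays limma called 3 genes for a different change in non-infarct tissue and the infarct region of MRL hearts. Higd1a, a mitochondrial protein induced by low oxygen, had log2 intensities of 8.10, 8.04, 7.90 and 8.09 at day 5, against 8.38, 8.59, 8.74 and 8.29 at day 0, in non-infarct tissue. In the infarct region it had 6.22, 5.91, 6.72 and 6.21 at day 5, against 8.52, 8.39, 8.59 and 8.54 at day 0. The difference was 1.78 (adjusted p = 0.048). For Fam81a it was 1.86 (adjusted p = 0.0025) and for Slc22a23, a transporter of unknown substrate, 1.60 (adjusted p = 0.0059), each the change in non-infarct tissue minus that in the infarct region. Both genes were dim, and the size of these differences is not exact. Fam81a had 3.71, 3.95, 3.57 and 5.16 at day 5, against 3.89, 3.46, 4.13 and 4.03 at day 0, in non-infarct tissue, and 3.18, 2.93, 3.10 and 3.04 at day 5, against 5.12, 4.38, 4.86 and 4.44 at day 0, in the infarct region. Slc22a23 had 3.27, 3.18, 3.36 and 4.23 at day 5, against 3.27, 3.29, 3.23 and 3.31 at day 0, in non-infarct tissue, and 3.14, 3.22, 3.26 and 2.71 at day 5, against 4.88, 4.42, 4.42 and 4.08 at day 0, in the infarct region. Of the 46 arrays, those above their own median were the 4 of the infarct region at day 0 and non-infarct day 5 replicate 4 for Fam81a, and 3 of the infarct region at day 0 for Slc22a23, all MRL. Fam81a and Slc22a23 thus passed the filter through a group that enters the difference and in which they are high. Their adjusted p-values are therefore a description and not support for a difference between the regions.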

How the results depend on the processing

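None of the 169 genes chosen by the naming rule changed sign under the settings listed here, but the split of calls between day 5 and day 0 turned with quantile normalization, to 48.5% higher from 66.3%. Against 1009 lower probe sets between day 5 and day 0, the count was 1853 with quantile normalization, 1883 without C57 day 5 replicate 3, 2735 with the 8 arrays alone, 2680 with a replicate block on those 8 and 502 with all 46 arrays in one fit. Other settings kept the 1981 higher probe sets within 1.5 times. Leaving out 1 of the 8 arrays gave 1356 to 1752 higher and 383 to 727 lower. The same-numbered day 5 and day 0 arrays correlated in their deviations at 0.04, 0.15, -0.04 and 0.22 for numbers 1 to 4, and the block changed 0 of the calls of the 169 genes made with the 8 arrays alone. Against day 1, of 1170 higher and 309 lower probe sets, the higher were 766 with the stricter filter (75th percentile) and 679 to 1115 without 1 of the 12 MRL non-infarct arrays. The lower were 569 with quantile normalization, 592 with no filter, 145 with all 46 arrays, 747 without C57 day 5 replicate 3 and 88 to 295 without 1 of the 12 MRL non-infarct arrays. The strain test, with 1 call, gave 2 with no filter, 0 with the stricter filter (86 at an unadjusted p under 0.05), 0 with all 46 arrays (131), 1 of another gene and opposite sign with 32 added before log2, 10 without C57 day 5 replicate 3 and 1 to 10 without any 1 array. Leaving out C57 day 5 replicates 1 and 3, chosen after seeing the data, gave 14. The region test, with 3 calls, gave 7 with centred arrays, 0 with the stricter filter (1395 at an unadjusted p under 0.05) and 6 with 32 added before log2. A block by replicate number within strain and day, which the labels do not tie to hearts, gave 45. The count was 2514 without the pair of arrays that stood apart and 2 to 1980 without 1 of 16 MRL arrays of days 0 and 5. Same-numbered non-infarct and infarct arrays of MRL correlated at 0.08, 0.47, 0.34 and -0.03 at day 5 and at 0.08, 0.18, 0.55 and 0.44 at day 0, best with their own number in 6 of 8, which is a hint of shared hearts from the data and not from the labels. The causes of these shifts were not tested. Of 300 called genes, those of the lists and of the naming rule, 88 (35 higher and 53 lower) lost the call without some 1 array. Where a group lay below the array medians, as for 34 of the 169 genes, signal over background limits the size of the change.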

Other observations

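Clock genes leaned downward with few calls. Of 18 tested genes of the circadian clock and its outputs (23 listed) 13 lay below 0, 3 fell and 1 rose, with a median of -0.49. Hlf, a PAR bZIP factor driven by the clock, had log2 intensities of 4.87, 4.51, 4.87 and 4.81 at day 5, against 6.28, 6.68, 4.79 and 6.81 at day 0 (log2 change -1.38 ± 0.39 (SE), adjusted p = 0.014). Dbp, its relative, had 9.02, 7.70, 8.00 and 9.15 at day 5, against 9.32, 9.84, 6.52 and 10.51 at day 0 (log2 change -0.58 ± 0.68 (SE), adjusted p = 0.54). The days overlapped for both genes, and Dbp varied widely within each day. Cry2, a repressor of the clock, fell by 0.83 and Tsc22d3, a glucocorticoid target, by 0.70, while Bhlhe40, a repressor also induced by low oxygen, rose by 1.02. Cry2 lost its call in 5 and Tsc22d3 in 7 of the 8 fits without 1 array, Hlf without day 0 replicate 2 or 4 and Bhlhe40 without day 0 replicate 1 or day 5 replicate 4. The hour of sampling was not tested.

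Immediate early and chaperone genes held few calls at day 5. Of 15 tested immediate early genes (20 listed) Klf4 fell by 0.87 and Dusp1 by 0.82, while Fos was at -0.39 (adjusted p = 0.68) and Egr1 at -0.38 (0.54). Klf4 lost its call without day 5 replicate 1 or day 0 replicate 2, and Dusp1 in 5 of the 8 fits without 1 array. Of 26 tested genes of chaperones and endoplasmic reticulum stress (28 listed) Herpud1, of protein disposal, fell by 1.12, Ddit3, the factor CHOP, fell by 0.54 and Asns, asparagine synthetase, rose by 1.18. Ddit3 lost its call in 5 of those fits and Asns without day 5 replicate 2.

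Cell cycle inhibitors were split while the cell cycle genes rose. Of 16 tested inhibitors and p53 targets (21 listed) 4 rose and 3 fell. Phlda3, an inhibitor of Akt that p53 induces, had log2 intensities of 7.87, 7.83, 7.86 and 7.58 at day 5, against 5.60, 5.38, 6.31 and 6.18 at day 0 (log2 change 1.91 ± 0.27 (SE), adjusted p = 5.1e-05). Cdkn2c, the inhibitor p18, rose by 1.65 and Cdkn1c, the inhibitor p57, fell by 0.65. Both kept their calls without any 1 array. The calls of Plk2 and Zmat3, higher by 0.69 and 1.04, were lost in 8 and 7 of the 8 fits, and those of Gadd45a and Mdm2, lower by 0.90 and 0.63, in 7 and 4.

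Acute phase genes were few. Of 15 tested genes of the acute phase, iron and metallothionein list (18 listed) 4 rose: Serpina3n by 1.93, Lcn2 by 1.92, Saa3 by 1.46 and Hp, haptoglobin, by 1.30. Hp lost its call in 7 of the 8 fits without 1 array (adjusted p up to 0.16).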
